A study of Rattus norvegicus with 4 samples.

Results

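Resistance wheel running (RWR) was compared with a sedentary life in the rat hippocampus on 2 of the 4 chips of the series, a dye-swap pair of a 2-colour whole-genome oligonucleotide array. Every chip that held the RWR and the sedentary pool was taken, and the chips of unloaded wheel running (WR) entered only for values given side by side. The rats were male Wistar rats aged 10 weeks. The RWR group (8 rats) ran voluntarily for 4 weeks in a wheel whose load started at 4.5 g in the first week and was raised to 30% of body weight, the WR group (8 rats) ran for the same time without a load, and the sedentary group (10 rats) had no running. The labels name no allele or drug for any group. Hippocampi were collected the day after the last day of exercise. Equal amounts of RNA of each replicate were pooled within each group. The amounts in the methods give 3 replicates per pool, without stating whether a replicate was 1 rat. On chip 3 the RWR pool carried Cy5 and the sedentary pool Cy3, and on chip 4 the dyes were exchanged. Both chips read the same 2 pools, so the spread between them is technical, there is 1 pool per group, and no test between RWR and sedentary rats could be made. Of the 41012 probes of the array, 26920 (65.6%) exceeded the software's background test in both dyes on both chips and were kept. They included 7809 probes of 6316 named genes, out of 8899 genes that could be named on the array.

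The hippocampus forms new memories and is among the few regions of the adult brain where neurons are still generated. In rodents, wheel running is known to raise the birth of neurons in the dentate gyrus and to act through neurotrophins, above all brain-derived neurotrophic factor (BDNF) with its receptor TrkB and the transcription factor CREB. Loaded running resembles strength training in that the muscle works against a resistance. Of 7 markers of hippocampal neurons, 5 could be named on the array (Calb1, Wfs1, Nrgn, Camk2a and Slc17a7), and all 5 passed the background test in both pools. In bulk tissue, fewer cells of a type and less RNA per cell cannot be told apart.

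The RWR and sedentary pools differed little. Over the kept probes, the log2 ratio of RWR over sedentary (mean of both chips) had a median of 0.0044 and an SD of 0.114, and 92.4% of the probes lay within 0.2 of 0. The dye normalization of each chip centres the ratios near 0, so the median alone does not measure how far the pools differed. A probe was called up-regulated where the ratio exceeded 1.5-fold on both chips and down-regulated where it was below 0.75-fold on both. By this rule 4 probes were up-regulated (0.0149% of those kept) and 24 were down-regulated (0.0892%). Down-regulated probes thus made up 85.7% of the 28 called probes, with an exact 95% binomial interval of 67.3% to 96.0%. The interval takes the probes as independent and covers counting error only, not the spread between rats. The cutoffs are unequal, since 0.75-fold is nearer to 1 than 1.5-fold, and with cutoffs of equal size 4 probes were up-regulated and 15 down-regulated. The counts were 2 and 11 with normexp background correction, 2 and 7 with no correction, and 10 and 31 when the dye bias seen on the WR chips was subtracted first.

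The dye was the larger term on single chips. On chip 3 alone 596 kept probes exceeded 1.5-fold and 1266 lay below 0.75-fold, and on chip 4 alone the counts were 782 and 1127. The turned ratios of both chips had a correlation of -0.63 across the 26920 kept probes, which share pools, dyes and slide, and 830 probes passed the cutoffs in opposite directions. Before turning, the Cy5 over Cy3 ratio correlated with the dye term of the WR chips (mean of the Cy5 over Cy3 ratios of chips 1 and 2) at 0.79 on chip 3 and at 0.73 on chip 4, across 24953 probes. After the dye term was subtracted the correlation of both chips was -0.10. The SD of the chips' deviation from their mean was 0.238, against the SD of 0.114 of the mean itself. Only probes on the same side of 0 on both chips are therefore read as having a direction below. There were 8618 of them (32.0% of those kept), 4468 above 0 and 4150 below. Precision also depended on brightness, since the SD of the mean log2 ratio was 0.180 in the dimmest of 10 equal signal levels of the kept probes and 0.067 in the brightest. Of the 28 called probes, 11 had a mean processed signal under 100, where the median signal of all kept probes on chip 3 was 235.4 in the RWR pool and 233.6 in the sedentary pool.

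**Figure D1:**
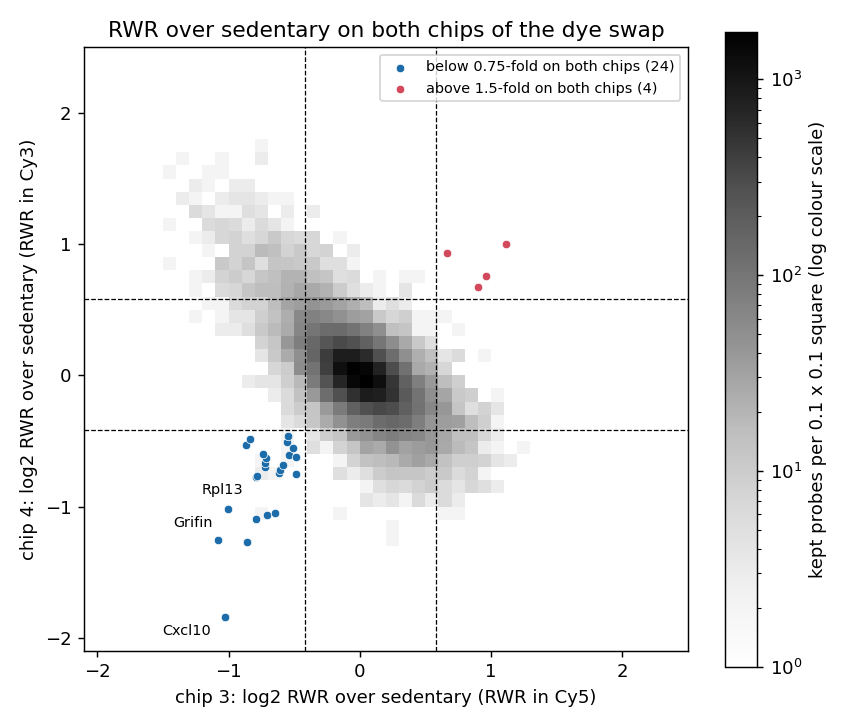
Log2 ratio of RWR over sedentary on chip 3 (x axis) against chip 4 (y axis) for the 26920 kept probes, drawn as the number of probes per square on a log colour scale. Dashed lines mark 1.5-fold and 0.75-fold, blue points are the 24 probes down-regulated on both chips and red points the 4 up-regulated on both, while most of the probes spread along the falling diagonal where the chips disagree.

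The filter on background was not neutral between the pools. On chip 3, 77.9% of the spots passed the background test with the RWR pool and 77.6% with the sedentary pool, whereas on chip 4 the shares were 69.0% in the RWR pool, then in Cy3, and 82.5% in the sedentary pool, then in Cy5. Beside this, 405 probes passed the test on each chip with the sedentary pool and on no chip with the RWR pool, and 0 probes showed the reverse. Without the filter 36 probes would be called up-regulated and 572 down-regulated. Of the 572, 548 were not among the kept probes, and 66 belonged to the 405. The part of the dye in this was not tested, and no ratio is given here for a gene that was not kept.

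Of the 28 called probes, 6 could be named by their accession and all 6 were down-regulated, namely Cxcl10, Grifin, Rpl13, Rsad2, Olr59 and Myh3 (0.095% of the 6316 kept genes). The other 22 called probes, 4 up-regulated and 18 down-regulated, carry no gene name here, as do 71.0% of all kept probes. Cxcl10 had the largest difference of the called probes. It encodes a chemokine that interferons induce and that draws T cells through the receptor CXCR3. Its processed signal (intensity in arbitrary units) was 81.7 in the RWR pool and 166.5 in the sedentary pool on chip 3, and 50.6 and 181.4 on chip 4. The sedentary pool was the brighter one under either dye. The mean log2 ratio was -1.43, a 2.70-fold lower level, with -1.03 on chip 3 and -1.84 on chip 4, and the software's error model gave a standard error of 0.18. On the WR chips, which were set against the same sedentary group, Cxcl10 had log2 ratios of -1.28 and -1.76. The size depended on the background correction. It was -0.87 after normexp correction and -0.73 with no correction, and Cxcl10 was still below 0.75-fold on both chips in either case.

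Rsad2, which encodes the antiviral enzyme viperin and is likewise induced by interferons, was the other down-regulated gene of that response. Its signal was 151.4 in the RWR pool against 219.5 in the sedentary pool on chip 3, and 118.2 against 180.3 on chip 4. Both chips placed the RWR pool lower by a like amount, at log2 ratios of -0.54 and -0.61 (mean -0.57, error model 0.15). The WR chips gave -0.82 and -0.79. Rsad2 no longer passed the cutoffs on both chips with normexp correction (-0.45), with no correction (-0.37), or with equal cutoffs of 1.5-fold in both directions.

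Interferons act through receptors that switch on transcription factors of the STAT and IRF families, and these bind short elements before the start of their target genes. The core of such an element, GAAA followed by any 2 bases and a further GAAA on either strand, was searched in the RefSeq promoter windows of the GRCr8 assembly, each of 250 bases before and 50 after a gene's start. It was present in 1312 of 33469 windows (3.92%) and in 9 of the 15 kept interferon-response genes that have a window. The bases before the start are printed for the 2 called genes and for Oasl2, a member with nearly equal ratios on both chips that was chosen after its values were seen. The core is in capitals, and each sequence is written 5' to 3' along the strand of its gene, with that of Cxcl10 at chr14:15988816-15989065 on the plus strand, Rsad2 at chr6:48788121-48788370 on the minus strand and Oasl2 at chr12:47383186-47383435 on the minus strand.
Cxcl10: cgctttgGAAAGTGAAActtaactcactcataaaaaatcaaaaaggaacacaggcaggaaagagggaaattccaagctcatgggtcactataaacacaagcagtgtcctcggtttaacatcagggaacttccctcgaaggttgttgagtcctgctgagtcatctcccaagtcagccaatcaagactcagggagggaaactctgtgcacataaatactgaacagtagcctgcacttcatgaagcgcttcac
Rsad2: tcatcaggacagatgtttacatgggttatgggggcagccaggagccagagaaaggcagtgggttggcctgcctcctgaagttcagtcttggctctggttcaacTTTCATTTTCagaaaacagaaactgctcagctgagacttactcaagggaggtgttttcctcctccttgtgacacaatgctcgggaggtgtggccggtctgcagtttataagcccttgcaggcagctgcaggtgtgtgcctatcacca
Oasl2: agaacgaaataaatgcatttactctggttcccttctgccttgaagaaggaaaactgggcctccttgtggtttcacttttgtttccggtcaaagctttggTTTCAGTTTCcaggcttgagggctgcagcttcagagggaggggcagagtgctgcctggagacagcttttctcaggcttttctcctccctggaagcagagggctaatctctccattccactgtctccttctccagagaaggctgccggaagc
The core begins 243 bases before the start in Cxcl10, 147 before it in Rsad2 and 151 before it in Oasl2, on the reverse strand in the last pair. A match describes these letters and is not a measured binding site.

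Of 24 interferon-response genes on the array 19 were kept, and Cxcl9, Cxcl11, Ifit1, Ifit3 and Oasl were not. The median log2 ratio of the 19 was -0.11, with -0.14 on chip 3 and -0.11 on chip 4, and 9 of the 19 (47.4%) were below 0 on both chips against 16.4% of all kept genes. Irf9, a transcription factor of the interferon response, was the single member above 0 on both (5.26%, against 15.8% of all kept genes), at 0.16 and 0.08. Apart from Cxcl10 and Rsad2 no member was called. Oasl2, of the oligoadenylate synthetase family that senses double-stranded RNA, had log2 ratios of -0.24 and -0.28, and its relative Oas1a had -0.23 and -0.11. Gbp2, an interferon-induced GTPase, had -0.14 and -0.25. Tap1, which carries peptides for antigen presentation, had -0.07 and -0.34. Values nearer to 0 were found for Ifit2 (-0.17 and -0.04), for Irf7 (-0.05 and -0.11) and for Stat2 (-0.02 and -0.14). Bst2, the virus-tethering protein tetherin, had -0.90 and 0.35 and thus opposite signs on the chips, and Irf1 had 0.41 and -0.62. The median of the 19 genes against the sedentary group was -0.31 on the WR chips. The list was drawn up with results of these data known, so its direction is not independent evidence.

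**Figure D2:**
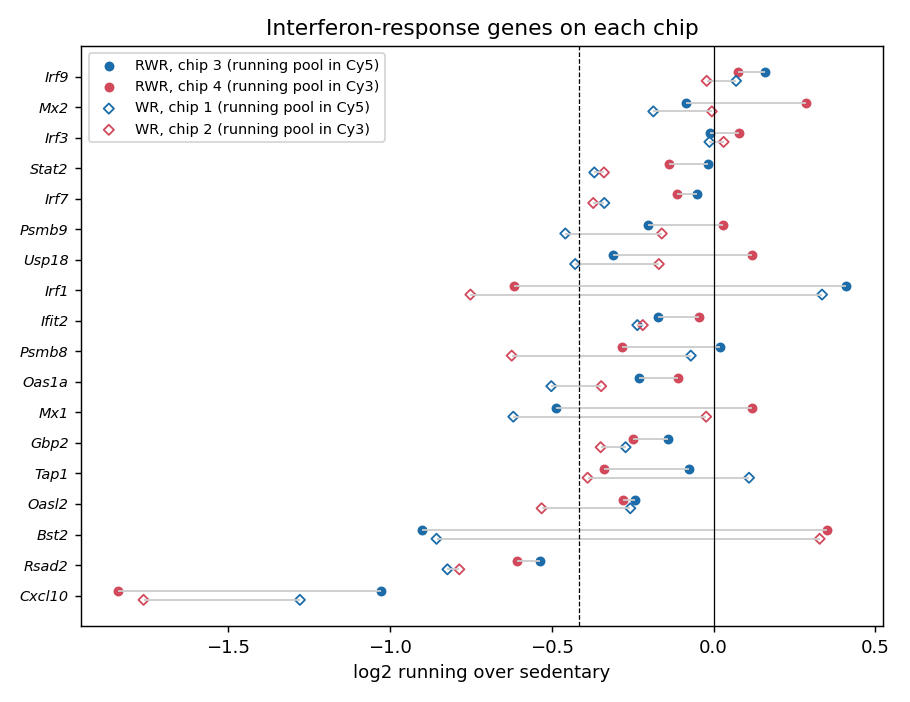
Log2 ratio of the running over the sedentary pool on each chip for 18 of the 19 kept interferon-response genes, with filled circles for RWR (chips 3 and 4), open diamonds for WR (chips 1 and 2), blue for the running pool in Cy5 and red for it in Cy3, and a dashed line at 0.75-fold. Cxcl10 (mean -1.43 in RWR) and Rsad2 (-0.57) lie left of the line on all 4 chips, while Bst2 and Irf1 change sign with the dye.

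The other 4 named genes have other roles. Grifin, a galectin-related protein known from the fibre cells of the lens, had a signal of 58.7 in the RWR pool and 117.9 in the sedentary pool on chip 3, and of 48.5 and 98.3 on chip 4. The RWR pool was 2.02-fold lower, with log2 ratios of -1.01 and -1.02 (error model 0.17). The WR chips gave -0.91 and -0.97. Without background correction the mean was -0.47, and neither that setting nor normexp correction (-0.55) kept Grifin below the cutoff on both chips. Rpl13, a protein of the large ribosomal subunit, was bright, at 10732 in the RWR pool against 18423 in the sedentary pool on chip 3 and 8434 against 14361 on chip 4. Its log2 ratios of -0.78 and -0.77 were nearly equal, and those on the WR chips were -0.85 and -0.75. The other kept probe of Rpl13 showed no such difference, however, at -0.15 on chip 3 and 0.05 on chip 4, so the difference belongs to 1 probe and not to the gene as a whole. Of 65 kept cytosolic ribosomal protein genes, 18 (27.7%) were below 0 on both chips and 1 (1.54%) above, against 16.4% and 15.8% of all kept genes. No other member was called.

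Myh3, the myosin heavy chain of embryonic skeletal muscle, had a signal of 245.5 in the RWR pool against 359.1 in the sedentary pool on chip 3, and 251.9 against 346.6 on chip 4. The log2 ratios were -0.55 and -0.46, and its second probe, with a mean signal of 54.9, gave -0.40 and -0.54, so both probes were lower on both chips. On the WR chips the first probe had -0.36 and -0.35. Myh3 did not pass the equal cutoffs or either of the other background corrections (-0.45 and -0.42). Olr59, an olfactory receptor gene, was dim in either pool, with 33.9 against 47.5 on chip 3 and 36.8 against 56.6 on chip 4. Its log2 ratios were -0.49 and -0.62 in RWR, and -0.03 and 0.13 in WR. It was lost from the calls when the dye bias was subtracted, with equal cutoffs, and under either of the other background corrections, where its mean was -0.28 and -0.23. Cxcl10 and Rpl13 alone among the 6 passed under each background correction, and Cxcl10, Grifin and Rpl13 also had a single-chip p-value of the scanner software under 0.01 on both chips.

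The up-regulated probes had no gene name. A_44_P381994 had the largest rise, 2.08-fold, with a signal of 797.5 in the RWR pool against 367.5 in the sedentary pool on chip 3 and 631.0 against 316.0 on chip 4. Its log2 ratios were 1.12 and 1.00 in RWR, while the WR chips gave -1.41 and -1.40, so that this probe was above the sedentary level in one running group and below it in the other on every chip. A_44_P833199 was bright, at 5002 against 2560 on chip 3 and 4133 against 2450 on chip 4, with log2 ratios of 0.97 and 0.75. A_44_P845078 had 0.66 and 0.93, and A_44_P976842 had 0.90 and 0.67. Among down-regulated probes without a name, A_44_P443916 was the lowest at -1.08 and -1.25, with a signal of 273.9 against 579.0 on chip 3 and 212.1 against 505.4 on chip 4. A_44_P286311 followed at -0.86 and -1.27, A_44_P839581 at -0.79 and -1.09, A_44_P796680 at -0.71 and -1.07 and A_44_P731625 at -0.65 and -1.05. The 24 down-regulated probes had a median log2 ratio of -0.69 and ranged from -1.43 to -0.50.

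No named gene was up-regulated by the rule. The genes with the largest ratios in the same direction on both chips were mostly dim, and their chips differed widely. Sectm1b, a secreted and transmembrane immune protein, had the largest mean at 0.92, from 0.39 on chip 3 and 1.46 on chip 4. Its signal was 52.7 in the RWR pool and 40.1 in the sedentary pool on chip 3, and 35.5 and 12.9 on chip 4. Aim2, a sensor of cytosolic DNA, had 1.07 and 0.14. Lst1, a leukocyte protein, had 0.33 and 0.69. Dbh, the enzyme that makes noradrenaline from dopamine, had 0.90 and 0.10. Clec4f, a lectin of liver macrophages, had 0.99 and 0.01. Trh, the precursor of thyrotropin-releasing hormone, had 0.14 and 0.77, and 0.79 and 0.93 on the WR chips. Adcy10, the soluble adenylyl cyclase, had 0.34 and 0.52. C5ar1, the receptor of the complement fragment C5a, had 0.20 and 0.65. Both chips were closer for the following genes. Cxcr1, a receptor for interleukin-8 type chemokines, had 0.35 and 0.45 at signals of 257.1 against 201.8 on chip 3 and 242.4 against 176.8 on chip 4. Tmem100, a transmembrane protein, had signals of 803.0 against 632.6 on chip 3 and 621.8 against 467.6 on chip 4, for log2 ratios of 0.34 and 0.41. The others of the 15 were Rab43, Or9g20, Or1f20e, Gsta2 and Spata18, with means of 0.37 to 0.47.

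Below the 6 called genes, 9 further genes made up the 15 lowest means, from -0.50 to -0.41. Pomt2, which starts the O-mannose chains of dystroglycan, had -0.93 and -0.07. Pawr, a regulator of apoptosis, had -0.82 and -0.08. Phkg2, a catalytic subunit of phosphorylase kinase in glycogen breakdown, had -0.58 and -0.32 at signals of 214.4 against 320.2 on chip 3 and 199.5 against 248.5 on chip 4. Ccl6, a chemokine of myeloid cells in rodents, had -0.11 and -0.75. Slc27a2, which activates and imports long fatty acids, had -0.31 and -0.54, and its second probe -0.46 and -0.30. Phkg2 and Slc27a2 passed the cutoff on 1 chip only. The 9 genes were picked for low means with the same direction on both chips, so the fall itself was fixed by the choice. Akr1b10, an aldo-keto reductase, had -0.32 and -0.50. Olr1092, Or6c76b and Or6e1, all olfactory receptor genes, had means of -0.47, -0.47 and -0.42.

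**Figure D3:**
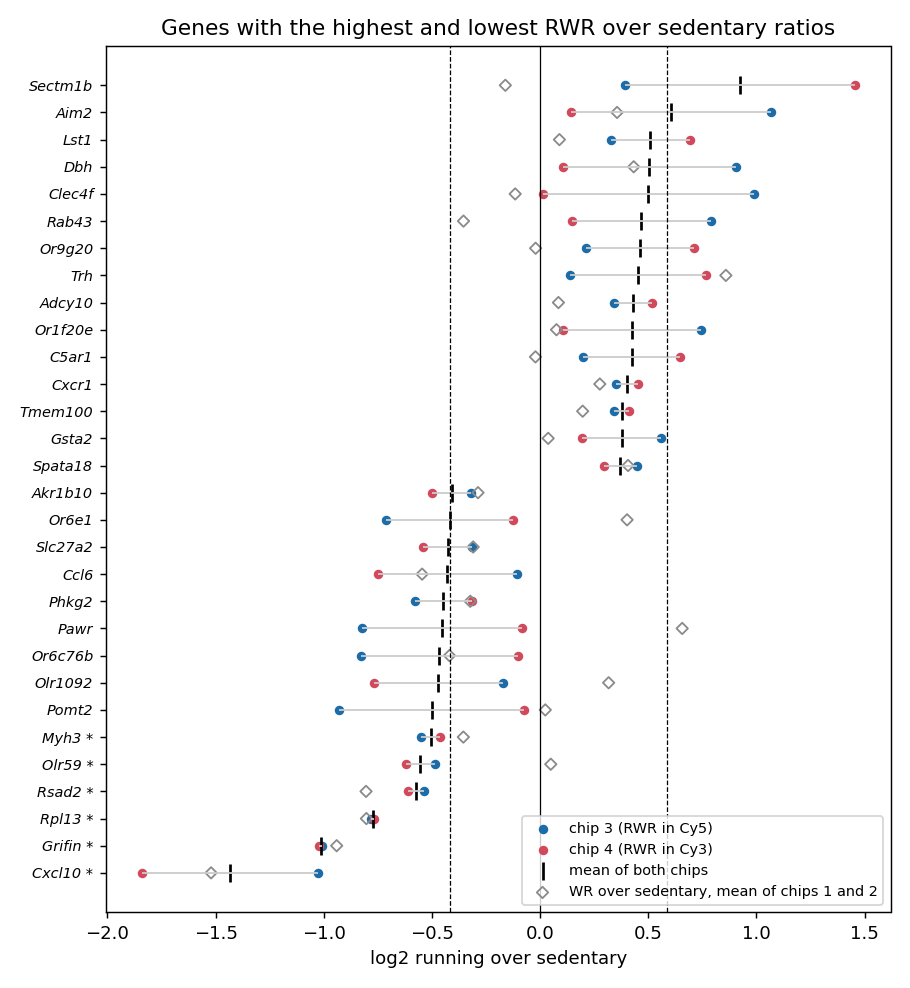
Log2 ratio of RWR over sedentary for the 15 named genes with the highest and the 15 with the lowest mean among those with the same sign on both chips, with chip 3 in blue, chip 4 in red, the mean as a black tick and the WR mean as a grey diamond. Dashed lines mark 1.5-fold and 0.75-fold, and an asterisk marks the 6 down-regulated genes. Their chips lie closer together than those of most other genes, Cxcl10 excepted. The call rule, a cutoff passed on both chips, favours this closeness. None of the upper 15 has both chips right of the upper line.

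Genes of the neurotrophin pathway differed little on the array. By quantitative RT-PCR, the paper reports higher mRNA of BDNF and p-CREB with RWR. Bdnf, which the study followed by RT-PCR, had a signal of 649.4 in the RWR pool and 578.0 in the sedentary pool on chip 3, and 521.8 and 515.2 on chip 4, for log2 ratios of 0.17 and 0.02. Its other probe had 0.29 and -0.01, and the WR chips gave 0.24 and 0.06. Ntrk2, which encodes TrkB, had 0.00 and 0.19, and its other probe -0.03 and -0.06. Creb1 had -0.43 and 0.26, opposite on the chips, and so had its other probe at -0.43 and 0.31. Actb, the endogenous control of the RT-PCR, had 0.08 and -0.08. Of 19 kept genes of BDNF, TrkB and CREB signalling none was called, where 0.095% of all kept genes were, and their median was 0.01. On both chips 4 (21.1%) were above 0 and 6 (31.6%) below, against 15.8% and 16.4% of all kept genes. Vgf, a neuropeptide precursor that BDNF induces, was highest at 0.21 and 0.10. In the list of adult neurogenesis (15 kept), 2 genes were above 0 on both chips and 3 below, with a median of 0.00. Nes, the intermediate filament of neural stem cells, was highest at 0.16 on either chip, and Stmn1, a tubulin-binding protein of young neurons, lowest at -0.25 on chip 4 and just below 0 on chip 3.

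Immediate early genes and glutamate receptor genes had more members above 0 than below. None of them was called, where 0.095% of all kept genes were. Of 20 kept immediate early genes, which neurons switch on within minutes of firing, 8 (40.0%) were above 0 on both chips and 1 below. Among all kept genes the shares were 15.8% above and 16.4% below. The median of the list was 0.03, with 0.13 on chip 3 and 0.01 on chip 4. Nptx2, a pentraxin that clusters AMPA receptors, was highest, at signals of 246.1 against 210.1 on chip 3 and 217.8 against 184.2 on chip 4. Its log2 ratios of 0.23 and 0.24 were nearly equal, and the WR mean was 0.34. Arc, a regulator of synaptic strength chosen after its values were seen, had 0.30 and 0.12. Klf4 was the member below 0, at -0.10 and -0.19. Of 18 kept glutamate receptor genes 7 (38.9%) were above 0 on both chips and 1 below, with a median of 0.03. Gria1, an AMPA receptor subunit, had 0.09 and 0.40 (WR mean 0.34), and Gria4, chosen after its values were seen, 0.30 and 0.18. Grm8, a metabotropic receptor, was lowest at -0.32 and -0.03.

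The remaining synaptic lists were balanced. Among 14 kept GABA receptor genes 2 were above 0 on both chips and 2 below (14.3% each, against 15.8% and 16.4% of all kept genes). Gabra3, a GABA-A receptor subunit, was lowest at -0.06 and -0.45. Among 27 genes of the synaptic vesicle and active zone the counts were 3 and 4, between Vamp1 (mean -0.16) and Sv2a (0.12). Among 21 of the postsynaptic density they were 4 and 3, and the scaffold gene Dlg1 was lowest at -0.60 and -0.11. In the lists of dentate gyrus and CA field neurons (10 kept) and of GABAergic interneurons (13 kept), 3 and 2 genes were above 0 on both chips and 1 and 0 below. Nr3c2, the mineralocorticoid receptor, was highest in the former and in the list of the stress axis, at 0.28 and 0.15. Npy, a peptide of interneurons, had 0.50 on chip 3 and -0.01 on chip 4.

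Myelin and microglial genes lay on opposite sides of 0 by small amounts. Of 14 kept genes of oligodendrocytes and myelin, 6 (42.9%) were below 0 on both chips and 0 above, against 16.4% and 15.8% of all kept genes. The median was -0.07, with -0.11 on chip 3 and -0.07 on chip 4, and the WR median was also -0.07. Mal, a proteolipid of myelin, was lowest, at 1054 in the RWR pool against 1418 in the sedentary pool on chip 3 and 1053 against 1163 on chip 4. Its log2 ratios were -0.43 and -0.14. Mbp, the myelin basic protein, chosen after its values were seen, had -0.36 and -0.12. Of 14 kept genes of microglia and complement, 7 were above 0 on both chips and 2 below, with a median of 0.09, the highest of the 28 lists, and of 0.05 on chip 3 and 0.12 on chip 4. P2ry12, the ADP receptor of resting microglia, had 1642 against 1355 on chip 3 and 1450 against 1184 on chip 4. Its log2 ratios were 0.28 and 0.29, and its WR mean was 0.03. Itgam, an integrin of the same cells, was lowest at -0.07 and -0.49. Astrocyte genes (13 kept) lay between -0.05 and 0.06 and had a median of 0.01.

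Genes of vessels, blood and tissue next to the hippocampus were compared to see how far the dissected pools differed in them. The choroid plexus and ependyma list had 8 of 13 genes kept, and its median of 0.07 was 0.11 on chip 3 and -0.03 on chip 4. Ttr, the thyroid hormone carrier made by the choroid plexus, had 0.20 and 0.04 in RWR, against a WR mean of -0.86. The lists of pituitary (4 of 7 kept, median 0.05), blood cells (5 of 6 kept, -0.04), endothelium and pericytes (9 of 10 kept, 0.06) and thalamus and striatum (7 of 10 kept, 0.03) held 0 called genes. Of all 6316 kept genes only 6 (0.095%) were called, so lists this short would mostly hold none. The pituitary median was below 0 on either chip alone (-0.01 and -0.04). Medians changed sign between the chips for endothelium and pericytes (-0.08 and 0.11) and for thalamus and striatum (0.15 and -0.12). Prl, which the paper reports as down-regulated by RWR, was among the pituitary genes not kept. The part of these tissues in the results above was not tested.

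In the immune lists beyond the interferon response, 43 of 96 cytokines, chemokines and receptors were kept. Of these, 7 were above 0 on both chips and 7 below (16.3% each, against 15.8% and 16.4% of all kept genes), the median was 0.01, and Cxcl10 was the only one called. Cxcr1 was highest and, after Cxcl10, Ccl6 was lowest. The other 53 did not pass the background test in both pools on both chips, and no ratio is given for them here. Among them are Cxcl1, Cxcl9, Ccl2, Ccr4, Il1b, Il2ra and Tnf, which the paper reports as down-regulated by RWR. The paper also lists RT-PCR primers for Cxcl1, Ccl2, Il1b, Il2ra and Tnf, and reports that RT-PCR bore out its array data. Without the filter the median of all 96 genes was -0.05. The balance above thus describes the kept genes only.

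Respiratory chain and ribosomal protein genes had medians below 0 on chip 3 and above 0 on chip 4. Of 48 kept subunits of the respiratory chain 14 (29.2%) were below 0 on both chips and 4 (8.33%) above, against 16.4% and 15.8% of all kept genes. The median of the subunits was -0.05, with -0.11 on chip 3 and 0.01 on chip 4. Uqcrc1, a core subunit of complex III, was lowest at -0.43 and 0.02, and Sdhc, of complex II, highest at 0.06 and 0.03. For the ribosomal proteins the median was -0.07, with -0.16 on chip 3 and 0.03 on chip 4. Among 23 kept genes of glucose use and lactate transport 5 were above 0 on both chips and 1 below, and they ranged from Pdk1, a kinase that holds back pyruvate dehydrogenase, at -0.30 and -0.16 to Pfkl, a phosphofructokinase, at 0.25 and 0.10. Genes of mitochondrial biogenesis (12 kept) had a median of 0.02, and Ucp2, an uncoupling protein, was highest at 0.32 and 0.12. Of 18 heat shock and chaperone genes 7 (38.9%) were below 0 on both chips and 2 above, and Cryab, a small heat shock protein that oligodendrocytes also make, was lowest at -0.22 and -0.27, with a WR mean of -0.26.

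Of 27 kept genes of the extracellular matrix and its proteases 10 (37.0%) were above 0 on both chips and 1 (3.70%) below. Among all kept genes the shares were 15.8% above and 16.4% below. The median of the list was 0.02. Mmp23, a matrix metalloproteinase, was highest at 0.23 and 0.15. Mmp14, a membrane-bound metalloproteinase, was the 1 below, at -0.21 and -0.22, and had a WR mean of -0.24. Among 20 growth factors of muscle and vessels 1 was above and 3 below, and Igfbp5, which binds insulin-like growth factors, was highest at 0.35 and 0.11. Of 13 genes of the glucocorticoid and stress axis 4 were above and 1 below. Of 15 circadian clock genes 3 were above and 3 below, from Tef at -0.25 and -0.17 to Nr1d1, a repressor of the clock, at 0.39 and 0.02. Across the 28 lists the medians ran from -0.11 to 0.09, and the called members were Cxcl10, Rsad2 and Rpl13.

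**Figure D4:**
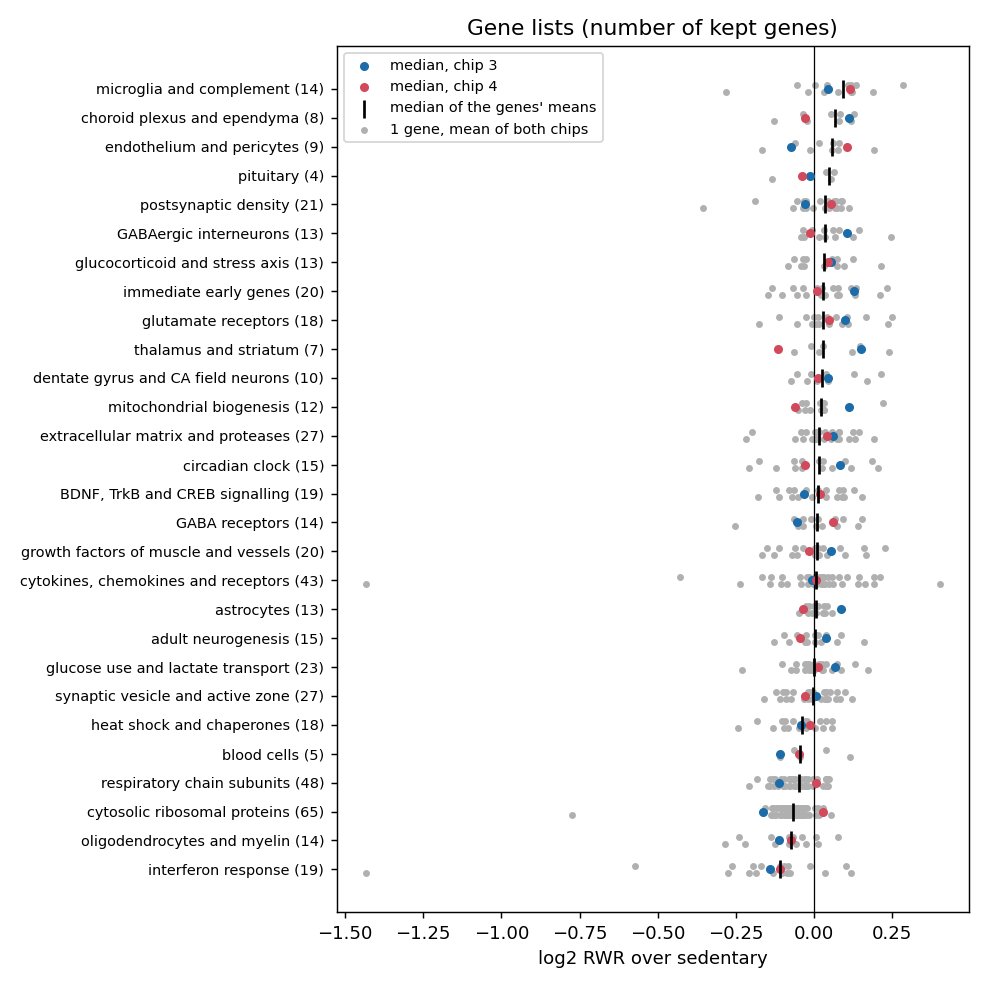
Log2 ratio of RWR over sedentary for the kept genes of 28 lists (grey points, 1 gene each, mean of both chips) with the median of the means as a black tick and the median on chip 3 (blue) and chip 4 (red). Interferon-response genes have the lowest median (-0.11) and microglia and complement genes the highest (0.09), and in several lists the medians of the chips lie on opposite sides of 0.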

How the data were processed

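Hippocampal RNA pools of RWR, WR and sedentary rats were compared in 2 colours on a slide of 4 chips, designed on the rn4 build. The authors processed the scans with Agilent Feature Extraction 11.0.1.1, which subtracted background and normalized the dyes by LOWESS. The deposited processed signal is an intensity per dye, the deposited log10 ratio sets Cy5 over Cy3, and the deposited p-value is that of a single chip. The series matrix the authors deposited holds a log10 ratio of the same spots.

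Here, the 43379 noncontrol spots of each chip were used without outlier-flagged spots (118 on chip 3 and 132 on chip 4). Ratios were turned to RWR over sedentary by the dye labels, converted to log2 and averaged per probe. No spot was saturated, and no kept probe had a ratio of exactly 0. A probe with several spots was kept where a share above 0.5 of them was well above background in either dye. Among the 198 kept probes with 10 spots, the median SD between spots was 0.033 on chip 3 and 0.035 on chip 4. The number of chips limits the precision. The chips of a pair count as 1 replicate, so no test between the groups was made. Probes were named by matching their accession without version to RefSeq symbols of GRCr8, used for names only: 10768 probes matched 8899 symbols. A gene was represented by its brightest kept probe, and 1268 genes had 2 or more, with a median SD between probes of 0.044.

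Named were the 15 genes with the largest rise and fall in the same direction on both chips, the 5 probes without a name in each direction, every called member and the highest and lowest of each list, and, of the genes the study measured by RT-PCR, Bdnf, Ntrk2, Creb1 and the control Actb. Other genes are named as chosen after their values were seen. A few list members are counted but not reported by name here. The comparison and the lists were chosen with earlier results of these data known. Alternatives were a limit of 0.01 on the deposited p-value, cutoffs on the mean of the pair or of equal size, normexp (offset 50) or no background correction with loess, median centring, subtraction of the WR dye bias, all probes, a signal over 200, the series matrix, genes in place of probes, and each chip left out. A filter on every spot of a probe was chosen later, with the values known. The calls were tested on simulated data. Python 3.11.15, numpy 2.4.6, pandas 2.3.3, scipy 1.17.1, matplotlib 3.10.9, R 4.3.3 and limma 3.58.1 were used.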

Additional observations from a re-analysis of the deposited data

Results flagged for a closer look

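For 2 flagged items both RWR chips lay on one side of the sedentary level and both WR chips on the other. In neither case was the difference between the running groups tested. The probe without a gene name A_44_P381994 had mean log2 ratios of 1.06 in RWR and -1.41 in WR, a difference of 2.46. Olr1092, an olfactory receptor gene, had -0.47 in RWR and 0.32 in WR, with 0.48 and 0.16 on the WR chips, a difference of -0.79. Olr1092 was dim, at signals of 37.8 to 64.5, and was not called. Most calls went the other way. Of the 28 called probes, 21 had both WR chips in the same direction as RWR and 1 had both in the opposite direction. In the other 6 the WR chips differed in direction. All 4 chips were set against the same sedentary group, so the WR chips are not an independent repeat.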

How the results depend on the processing

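The counts of up- and down-regulated probes, 4 and 24, depended on the processing. With a single-chip p-value under 0.01 on both chips they were 4 and 15, with cutoffs of equal size 4 and 15, and with cutoffs on the mean of the pair 15 and 60. They were 2 and 11 with normexp correction, 2 and 7 with no background correction, and 2 and 7 at signals over 200 in both dyes (13349 probes). They were 10 and 31 after subtraction of the WR dye bias, of which 25 were among the 28, and 36 and 572 without the background filter. With genes in place of probes they were 0 and 6, all of the calls lower (100%). From 1 chip alone they were 596 to 782 and 1127 to 1266, with 59.0% to 68.0% lower. Median centring, the series matrix and the filter on every spot gave 4 and 24. In every setting but genes in place of probes both directions were called and more probes were lower than higher. All settings but that of equal cutoffs kept the unequal cutoffs, which favour lower calls in advance. Without a cutoff, 4468 kept probes were above 0 on both chips and 4150 below. No called named gene changed sign. With either chip left out the call rule fixes this in advance, and subtracting the dye bias cannot change the mean of the pair. Of the 28 list medians, 12 changed sign on chip 4 alone and 8 on chip 3 alone. Those of the interferon response, oligodendrocyte and microglia lists kept theirs under each alternative. So did those of dentate gyrus and CA field neurons, immediate early genes, glutamate receptors, heat shock and chaperones, and the extracellular matrix. The causes were not tested beyond the fewer probes or chips that some settings hold. No paired analysis was possible because the chips of a pair are 1 replicate of the same pools. Depth in the sense of counts does not apply, and dim probes had the widest spread.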
